A study of Homo sapiens with 8 samples.

Results

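The respiratory chain is assembled from proteins encoded in 2 genomes, and both sets of transcripts were measured in the same libraries. The genes described here are the nuclear subunits of complexes I, III, IV and V and the protein-coding genes of mitochondrial DNA (mtDNA). They were chosen by symbol: NDUFA, NDUFB, NDUFC, NDUFS and NDUFV genes, UQCR genes, CYC1, COX4 to COX8 genes, ATP5 genes and the MT-ND, MT-CO, MT-ATP and MT-CYB genes, with 6 pseudogene symbols left out. The complex I subunit NDUFAB1 was not chosen, as its symbol has no digit after NDUFA. The choice gave 100 of the 30434 genes in the count table. Of these, 13 are encoded in mtDNA and 87 in nuclear DNA. The nuclear set comprises 79 subunits, subunit paralogues and associated factors, and 8 noncoding or readthrough transcripts that carry a subunit's name. The deposited symbols of the mitochondrial genes lack the MT- prefix, so these 13 were matched by Ensembl identifier. MT-ATP6 and MT-ATP8 were kept although their names end in P and a digit.

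RNA was sequenced from SKBR3, an established breast cancer line with amplified ERBB2 (HER2). The 4 control libraries came from cells with wild-type genotype. The 4 knockdown libraries came from a stable derivative in which lentiviral short hairpin RNAs lower FOXA1, a pioneer transcription factor of luminal breast cells. Both were grown in the same serum-containing medium. The labels do not say whether the controls carried a control vector, how many independent lines the knockdown comprised, or whether the replicates were separate cultures. The p-values therefore measure only the spread between these libraries.

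Complexes I, III and IV pass electrons from NADH to oxygen and pump protons across the inner mitochondrial membrane, and complex V, the ATP synthase, uses the proton gradient to make ATP. Mitochondrial DNA encodes the hydrophobic core of each of these complexes, and its genes are transcribed as long precursors that are cut into separate RNAs. All other subunits are encoded in the nucleus, translated in the cytosol and imported, and many of their promoters are known to bind NRF1, the ETS factor GABPA or YY1.

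FOXA1 itself had 4180, 4239, 4071 and 4397 counts in the control libraries and 89, 87, 83 and 92 in the knockdown libraries, which left 2.06% of its control level (log2 fold change -5.60 ± 0.063, SE; adjusted p = 3.19e-30). Expression differed widely between the groups. Of 16430 genes tested with edgeR's quasi-likelihood test, 77.1% were called at an adjusted p under 0.05, with 39.4% higher and 37.7% lower in knockdown. The share called and changed at least 2-fold was 28.3%, and 72.0% of the genes had CPM (counts scaled to 1000000 per library) that did not overlap between groups. Library totals ran from 19087878 to 23786684 counts. Counts of control replicate 3 differed from the other controls by more than those did among themselves, and leaving it out changed no call among the named members. The summed CPM of 10 epithelial and SKBR3 markers was 19079 to 21193 in control and 12019.6 to 12927 in knockdown, with ERBB2 at 7308 and 1340.1 and KRT8 at 4519 and 5619. Markers of other cell types were low: the summed CPM of 6 fibroblast markers in the table was 5.27 to 6.98 in control and 10.8 to 12 in knockdown, of 4 leukocyte markers 1.14 to 1.77 and 1.34 to 1.8, of 4 endothelial markers 20.9 to 22.1 and 19.7 to 22.5, and of 3 adipocyte markers 3.32 to 4.04 and 0.694 to 1.32. Of the fibroblast markers, COL3A1 went from 0.0222 to 4.32 CPM. The part of these marker differences in the results was not tested. In bulk RNA, fewer cells expressing a gene and less RNA per cell cannot be told apart.

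Summed over their genes, the shares of counts of the 2 genomes moved in opposite directions, although single nuclear genes moved both ways. The mtDNA-encoded messenger RNAs took 4.23%, 4.36%, 4.24% and 4.26% of all counts in the control libraries and 3.35%, 3.18%, 3.16% and 3.24% in the knockdown libraries. Their mean share was 4.27% ± 0.0613 (SD, n = 4) in control and 3.23% ± 0.0861 (SD, n = 4) in knockdown, which is 75.6% of the control share. The 79 nuclear genes took 1.13%, 1.15%, 1.17% and 1.15% of counts in control and 1.38%, 1.32%, 1.41% and 1.36% in knockdown. Their mean share was 1.15% ± 0.0169 (SD, n = 4) in control and 1.37% ± 0.0397 (SD, n = 4) in knockdown. In neither set did the groups overlap, and both differences were larger than the spread between libraries.

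**Figure D1:**
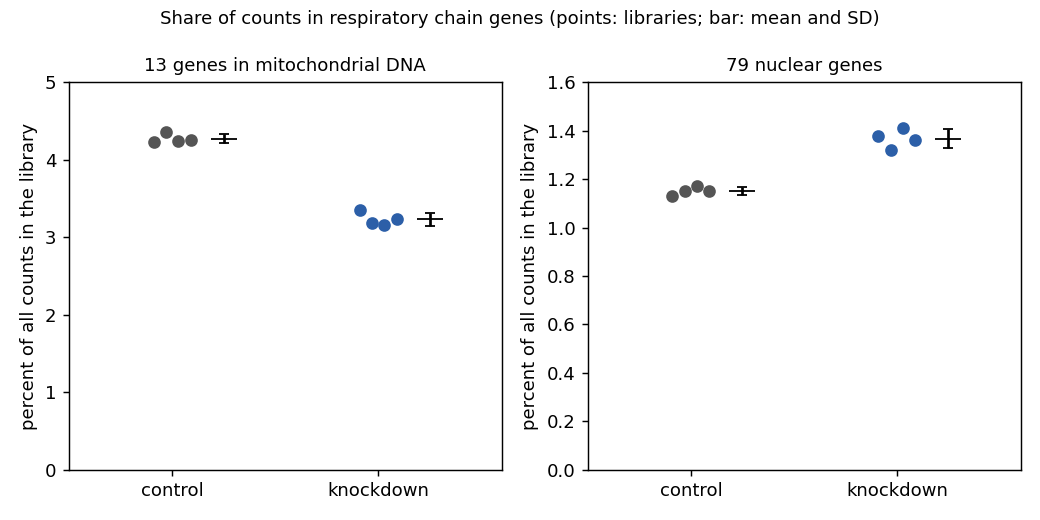
Percent of each library's counts in the 13 genes of mitochondrial DNA (left) and in the 79 nuclear genes (right), for 4 control and 4 knockdown libraries. Points are libraries and the bar gives the mean and SD. The mtDNA share lies between 4.23% and 4.36% in control and between 3.16% and 3.35% in knockdown, and the nuclear share is higher in every knockdown library.

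Of the 13 mtDNA-encoded protein genes, 11 fell, beside 37.7% of all genes tested, and 2 were not called. Their CPM did not overlap between groups for the same number, 11, and the median log2 fold change was -0.58, beside 0.019 over all genes tested. MT-CO1, the catalytic core of cytochrome c oxidase (chrM:5904-7445), took the most counts of the 13. It had 15456, 15647, 15323 and 15326 CPM in control and 9420.3, 8879, 8726 and 8995 CPM in knockdown. Every knockdown library was below every control library, the log2 fold change was -0.78 ± 0.0247 (SE), and the adjusted p was 1.48e-17 (edgeR quasi-likelihood test, Benjamini-Hochberg). MT-CO1 made up 35.1% ± 0.303 (SD, n = 4) of the mtDNA-encoded counts in control and 28.7% ± 0.326 (SD, n = 4) in knockdown. With MT-CO1 left out, the other 12 took 2.77% ± 0.0489 of all counts in control and 2.3% ± 0.061 in knockdown (SD, n = 4), or 83.1% of the control share.

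The largest log2 change among the 13 was that of MT-ND3, a small subunit of the membrane arm of complex I (chrM:10059-10404). The control libraries had 776, 849, 827 and 758 CPM and the knockdown libraries 400.0, 392, 427 and 410.1 CPM. These groups were far apart, with 50.7% of the control mean left, a log2 fold change of -0.98 ± 0.0465 (SE) and an adjusted p of 1.01e-17. MT-CYB, cytochrome b and the only mtDNA-encoded subunit of complex III (chrM:14747-15887), had 1981, 2081, 1988 and 1909 CPM in control and 1138, 1111, 1091 and 1144 CPM in knockdown. It kept 56.3% of the control mean, with a log2 fold change of -0.83 ± 0.0299 (SE) and an adjusted p of 1.14e-17. The 2 mtDNA-encoded subunits of complex V fell by similar amounts: MT-ATP6, which forms the proton path, by 0.65 ± 0.0333 (SE) on the log2 scale (adjusted p = 2.75e-15), and MT-ATP8, its small partner, by 0.58 ± 0.0418 (SE; adjusted p = 1.97e-13).

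Neighbouring genes on the same strand did not change alike. MT-CO3, a core subunit of cytochrome c oxidase (chrM:9207-9990), starts at the base where MT-ATP6 (chrM:8527-9207) ends. It had 2065, 2084, 2158 and 2198 CPM in control and 2309, 2081, 2144 and 2265 CPM in knockdown. These groups overlapped, and the log2 fold change of 0.05 ± 0.0406 (SE) was not called (adjusted p = 0.208). MT-ND1, a complex I core subunit (chrM:3307-4262), had 736, 753, 769 and 748 CPM in control and 739, 705, 705 and 773 CPM in knockdown. These also overlapped (log2 fold change -0.04, adjusted p = 0.273). Under upper-quartile scaling and with library size alone, MT-CO3 was called higher, at 0.11 and 0.13, and MT-ND1 had the opposite sign, at 0.02 and 0.04. MT-CO3 was also called higher, at 0.08, without knockdown replicate 2.

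The other members fell by amounts between these. MT-CO2, a core subunit of cytochrome c oxidase, had a log2 fold change of -0.13 (adjusted p = 0.0012), which was not called under upper-quartile scaling (-0.07) or with library size alone (-0.04). MT-ND4L and MT-ND4, whose reading frames overlap by 7 bases, changed by -0.17 and -0.24 (-0.08 and -0.15 with library size alone). MT-ND2 changed by -0.45, MT-ND5 by -0.61 and MT-ND6 by -0.63, with adjusted p between 3.11e-15 and 1.11e-11. MT-ND6 (chrM:14149-14673) is the only messenger RNA read from the other strand. Its CPM was 917, 964, 845 and 878 in control and 606, 589, 578 and 563 in knockdown, without overlap. The 12 genes of the plus strand had a median of -0.51, with 10 lower and 2 not called. Whether the counting used strand is not given in the sources used here, so reads of the 2 strands may be mixed.

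**Figure D2:**
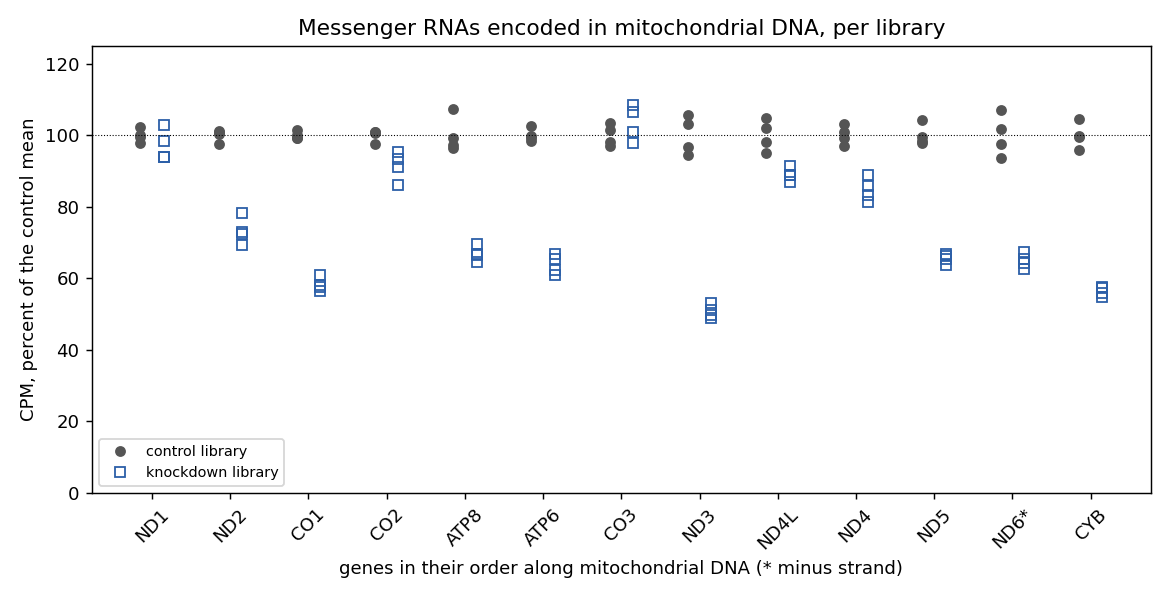
CPM of each mtDNA-encoded protein gene as percent of its control mean (vertical axis), with genes in their order along mitochondrial DNA (horizontal axis). Filled circles are control libraries and open squares knockdown libraries. ND3 averages 50.7% and CYB 56.3% of the control mean, while the groups of ND1 and CO3 overlap.

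Levels were also scaled to CPM per kilobase of gene, without a correction for read length, so ranks between genes of unlike length are approximate. On this scale MT-CO1 ranked first in control at 10012 ± 99 (SD, n = 4) and second in knockdown at 5839.7 ± 193 (SD, n = 4). MT-CO2 ranked second in control at 7731 ± 121 and first in knockdown at 7076 ± 312 (SD, n = 4). MT-ATP6 went from 4735 to 3021 CPM per kilobase and MT-ND4 from 4570.2 to 3876, so that these 2 also changed places. MT-ND1 was the lowest of the 13 in both groups, at 786 ± 14.2 and 764 ± 33.8 (SD, n = 4). The ATP6 and ATP8 genes overlap by 46 bases, within which reads cannot be assigned to either.

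Reads of these genes can also be shared with near-identical copies in nuclear DNA. The copies in the table took 0.0426% of all counts in control and 0.0292% in knockdown. Most of this was MTATP6P1 on chromosome 1, a copy of MT-ATP6, which had 404 ± 16.1 CPM and then 257 ± 13 CPM (SD, n = 4), with the same log2 fold change as MT-ATP6, -0.65. When the counts of the copies were added to their parent genes, 11 of the 13 were again lower, with a median of -0.58. The mitochondrial ribosomal RNAs, which are no members, were also lower: MT-RNR1 changed by -0.75 ± 0.0807 (SE) and MT-RNR2 by -0.18 ± 0.0397 (SE).

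Of all genes tested, 39.4% rose and 37.7% fell. Among the 77 nuclear genes that passed the filter on low counts, 43 rose, 21 fell and 13 were not called, with a median log2 fold change of 0.18. In 42 of them every knockdown library was above every control library, and in 21 every one was below, beside 72.0% of all genes without overlap in either direction. The share called was 83.1%, near the 77.1% of all genes, so the number of calls is no feature of these genes. The median absolute log2 fold change of these 77 was 0.26, beside 0.51 over all genes tested, and 60 of the 77 (77.9%) lay within 0.5 of 0, beside 49.2% of all genes. Only UQCRQ and COX7B2 were called with a change of at least 2-fold, both higher, beside 28.3% of all genes in either direction. With library size alone as the scaling, 49 were higher and 14 lower. The nuclear genes of complex I moved both ways, with 15 of 36 higher, 13 lower and a median of 0.03. These counts are near the shares of all genes tested, 39.4% higher and 37.7% lower. The nuclear genes of complexes III, IV and V mostly rose, with 6 of 9, 9 of 14 and 13 of 18 higher, beside 39.4% of all genes. In the same order 1, 4 and 3 were lower, beside 37.7%, and the medians were 0.17, 0.25 and 0.22. The difference between complexes was not tested.

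**Figure D3:**
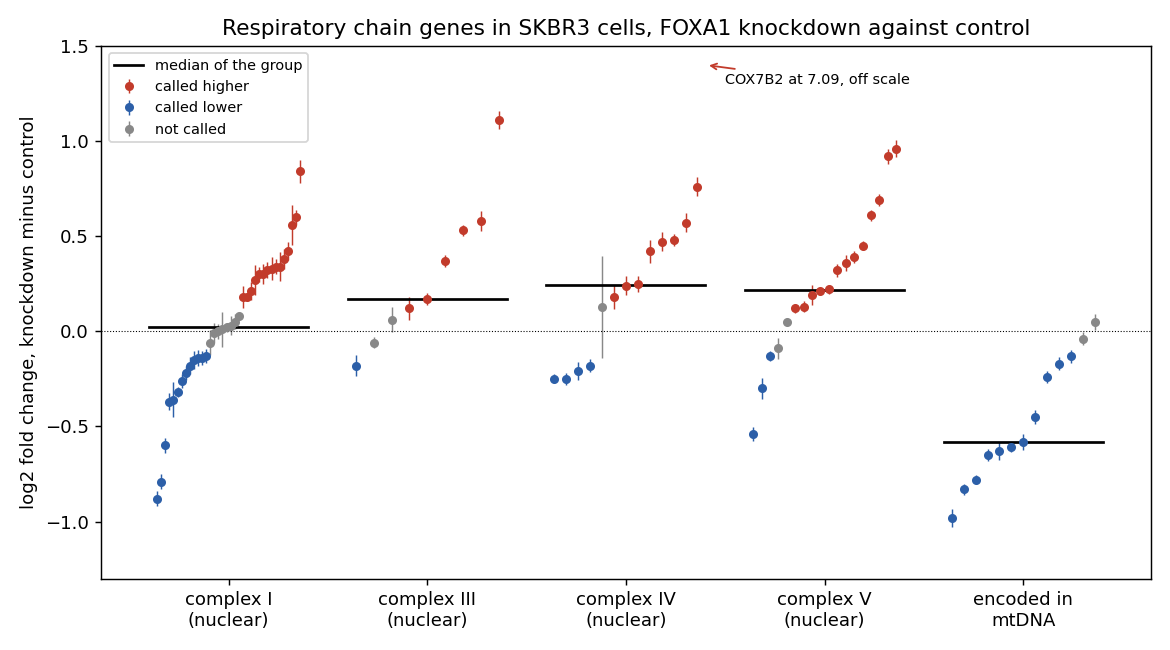
Fitted log2 fold change (knockdown minus control) of each tested member, by complex and genome. Points are genes with the SE as bar, colours give the call at an adjusted p under 0.05, and black lines are group medians. COX7B2 (7.09) is off the scale. The mtDNA-encoded genes lie between -0.98 and 0.05, and most nuclear genes within 0.5 of 0.

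Promoter sequences were available for 64 of the 79 nuclear genes in a RefSeq table on GRCh38.p14, as 300 bases from 250 before to 50 after the start. They were searched on both strands for 6 motifs, and no 2 different motifs overlapped in a member's promoter. The NRF1-type motif GCGCATGCG was present in 9 of 64 (14.1%), beside 3.59% of the promoters of tested genes and 2.1% of all 27305 promoters. The YY1-type motif AAGATGGCG was present in 7 (10.9%, beside 3.72% and 1.85%) and the ETS-type motif CCGGAAG, which GABPA is known to bind, in 18 (28.1%, beside 18.7% and 10.7%). CCAAT was present in 24 (37.5%, beside 36.4% and 35.7%), and the E-box CACGTG in 7 (10.9%, beside 9.93% and 7.43%). The forkhead-type motif TGTTTAC was in 0 of 64, beside 2.31% and 3.41%. Split by call, the NRF1-type motif was in 7 of 38 promoters of genes that rose and in 1 of 15 of genes that fell, the ETS-type motif in 11 and 5, and the E-box in 3 and 4. These shares are descriptions and were not tested.

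The promoters of COX6A1, NDUFB4, COX7B2, UQCR11 and ATP5IF1 show how these letters were arranged in genes that moved each way, given 5′ to 3′ for the gene's strand and limited to bases outside all GENCODE 29 exons, with motif matches in capitals. COX6A1 (chr12:120437863-120438089, plus strand) and NDUFB4 (chr3:120596086-120596308, plus strand) rose and hold the NRF1-type motif, 219 bases before the start in COX6A1 and as a palindrome read on both strands, 158 bases before the start, in NDUFB4 (log2 fold change 0.33, and 0.10 and not called relative to its 50 nearest tested genes). COX7B2 (chr4:46909246-46909495, minus strand), the member with the largest rise, holds a CCAAT box 88 bases before the start. UQCR11 (chr19:1605491-1605712, minus strand), which fell, holds the ETS-type motif at 97 and 117 bases and an E-box at 187 bases before the start. ATP5IF1 (chr1:28235874-28236108, plus strand), which fell, holds a CCAAT box at 27 bases before the start.
COX6A1: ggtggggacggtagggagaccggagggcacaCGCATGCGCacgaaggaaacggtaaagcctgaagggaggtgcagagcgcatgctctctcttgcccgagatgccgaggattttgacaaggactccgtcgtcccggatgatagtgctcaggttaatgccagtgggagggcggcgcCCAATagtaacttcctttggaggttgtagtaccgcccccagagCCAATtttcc
NDUFB4: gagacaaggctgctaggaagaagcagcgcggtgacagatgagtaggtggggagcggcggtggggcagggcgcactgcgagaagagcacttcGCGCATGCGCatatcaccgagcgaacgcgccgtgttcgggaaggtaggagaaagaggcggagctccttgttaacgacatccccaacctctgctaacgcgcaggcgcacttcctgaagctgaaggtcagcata
COX7B2: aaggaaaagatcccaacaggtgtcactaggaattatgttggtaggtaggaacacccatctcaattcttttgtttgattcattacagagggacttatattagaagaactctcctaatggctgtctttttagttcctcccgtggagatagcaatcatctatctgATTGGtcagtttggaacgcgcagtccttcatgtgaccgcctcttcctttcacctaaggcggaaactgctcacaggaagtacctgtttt
UQCR11: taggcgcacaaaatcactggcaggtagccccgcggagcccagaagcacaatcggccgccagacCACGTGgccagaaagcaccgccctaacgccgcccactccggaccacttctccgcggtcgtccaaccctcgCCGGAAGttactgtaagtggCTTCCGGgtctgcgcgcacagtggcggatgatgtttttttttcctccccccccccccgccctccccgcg
ATP5IF1: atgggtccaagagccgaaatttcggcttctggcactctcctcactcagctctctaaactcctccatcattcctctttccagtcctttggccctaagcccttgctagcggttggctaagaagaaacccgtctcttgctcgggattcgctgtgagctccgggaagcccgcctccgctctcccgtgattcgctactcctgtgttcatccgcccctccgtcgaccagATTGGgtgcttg

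In complex I the shares called were 71.4% for the nuclear-encoded catalytic core and 79.3% for the accessory subunits, beside 77.1% of all genes tested. The directions of the calls differed. Of the 7 nuclear-encoded core subunits 5 fell, beside 37.7% of all genes tested, and 2 were not called, with a median of -0.15. NDUFS7, which holds the last iron-sulfur cluster before quinone (chr19:1383527-1395589), had 72.8, 69.2, 78.2 and 75.4 CPM in control and 47.9, 48.2, 49.9 and 48.3 CPM in knockdown. These groups did not overlap, and the log2 fold change was -0.60 ± 0.0398 (SE; adjusted p = 4.71e-12). NDUFS1, the largest subunit of the NADH arm, changed by -0.32 and NDUFV1, which binds NADH, by -0.26. NDUFS3 changed by -0.15, while NDUFV2 (0.02) and NDUFS8 (0.05) were not called. Of the 29 accessory subunits chosen by symbol, which surround the core, 15 rose, 8 fell and 6 were not called, with a median of 0.18. Among all genes tested 39.4% rose. Relative to their 50 nearest tested genes the core did not move one way: NDUFS1 (-0.44), NDUFS7 (-0.33) and NDUFV2 (-0.21) were lower, and NDUFS8 (0.52), NDUFS3 (0.39) and NDUFV1 (0.21) were higher. Here and below, calls relative to neighbours take the neighbours' median as exact, so its own error is left out. The difference between core and accessory subunits was not tested.

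The accessory subunits of complex I included the largest falls among all nuclear members. NDUFC2, in the membrane arm (chr11:78068304-78080219), had 148, 150.4, 159 and 145 CPM in control and 85.6, 79, 82.8 and 80.9 CPM in knockdown. Its groups were widely separated, with a log2 fold change of -0.88 ± 0.0385 (SE) and an adjusted p of 1.9e-16. NDUFB5, another membrane-arm subunit (chr3:179604690-179627647), had 109, 112, 118 and 114 CPM in control and 65.5, 63.6, 69.9 and 63.5 CPM in knockdown (log2 fold change -0.79, adjusted p = 3.94e-15). NDUFB9, also in the membrane arm, went from 823 ± 17.2 to 637 ± 37.3 CPM (SD, n = 4; log2 fold change -0.37). Relative to their neighbours these 3 were at -0.58, -0.70 and -0.15, each still called lower.

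Other accessory subunits rose. NDUFA2, on the matrix arm (chr5:140638740-140647785), had 63, 65.8, 69 and 67.3 CPM in control and 119, 108, 129 and 120.4 CPM in knockdown. Every knockdown library was above every control library, with a log2 fold change of 0.84 ± 0.0583 (SE; adjusted p = 2.97e-14). NDUFS6, a zinc-binding subunit, rose from 135 ± 6.93 to 205 ± 4.83 CPM (SD, n = 4; log2 fold change 0.60, and 0.30 relative to neighbours). NDUFB7 rose by 0.56 ± 0.105 (SE), a less precise value, from 56 ± 3.79 to 82.6 ± 10.9 CPM (SD, n = 4), and NDUFA6 by 0.42. NDUFC1 was lower at -0.18 (0.12 relative to neighbours), and it shares 360 of its 1941 exon bases, on the same strand, with MGARP, which went from 0.045 to 81.5 CPM, so how its reads were divided is uncertain.

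In complex III both nuclear-encoded catalytic subunits rose. CYC1, cytochrome c1, had 203, 213, 229 and 225 CPM in control and 326, 309, 344 and 323 CPM in knockdown, without overlap (log2 fold change 0.58 ± 0.0506, SE; adjusted p = 2e-12). UQCRFS1, the Rieske iron-sulfur protein, rose by 0.17, but relative to its neighbours, which had a median of 0.34, it was lower at -0.18. The 2 large core proteins also rose, UQCRC2 from 224 ± 7.12 to 325 ± 6.19 CPM (log2 fold change 0.53) and UQCRC1 from 233 ± 9.71 to 302 ± 5.35 CPM (0.37; SD, n = 4), and relative to their neighbours these changes were 0.12 and 0.14. UQCRQ, a small subunit that contacts cytochrome b (chr5:132866560-132868031), had 56.3, 56.3, 61.4 and 58.5 CPM in control and 129, 118, 133 and 123 CPM in knockdown. The groups were widely separated, with a log2 fold change of 1.11 ± 0.0479 (SE; adjusted p = 1.02e-17), but its 50 nearest tested genes had a median of 1.09, and relative to them the change was 0.03 and not called.

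The other small complex III subunits were closer to 0. UQCR10 was called higher at 0.12 although its groups overlapped. UQCR11 was lower at -0.18 (66.1 ± 2.08 to 58.5 ± 4.24 CPM; SD, n = 4), a call that was lost with library size alone (-0.09) and turned to 0.18 relative to neighbouring genes. UQCRB (0.06) and UQCRH (-0.06) were not called. UQCRHL, a paralogue of UQCRH, had 3, 4, 0 and 7 counts in control and 3, 1, 6 and 2 in knockdown and was not tested.

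All 11 of the broadly expressed nuclear genes of complex IV were called, with 7 higher and 4 lower. Of all genes tested, 77.1% were called, 39.4% higher and 37.7% lower. COX7B, a small subunit (chrX:77899438-77907373), had 162, 164, 161 and 165 CPM in control and 291, 256, 296 and 266 CPM in knockdown. The groups did not overlap, with a log2 fold change of 0.76 ± 0.0514 (SE; adjusted p = 1.67e-14). COX4I1, the largest nuclear-encoded subunit (chr16:85798633-85807044), had 152, 157, 169 and 155 CPM in control and 236, 219, 246 and 240.0 CPM in knockdown (log2 fold change 0.57 ± 0.0493, SE; adjusted p = 1.82e-12). COX5B rose by 0.48 and COX6A1 by 0.42. COX7C, COX6B1 and COX7A2 rose by 0.25, 0.24 and 0.18, and the groups of COX7A2 overlapped. None of these last 3 was higher relative to its neighbours, where COX7C was at -0.18, COX6B1 at -0.31 and COX7A2 at -0.08, the last not called.

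The members of complex IV that fell did so by a narrow range. NDUFA4, which was first assigned to complex I and is now known as a complex IV subunit, went from 360.2 ± 8.49 to 303 ± 11.6 CPM, and COX5A from 179 ± 3.51 to 150.3 ± 3.88 CPM (SD, n = 4), each with a log2 fold change of -0.25. COX8A and COX6C changed by -0.21 and -0.18. All 4 lie among genes that were themselves lower, and relative to the 50 nearest genes they were at 0.29, 0.02, 0.11 and 0.21, in the order named. COX7A2L, which joins complexes III and IV in supercomplexes, rose from 76.5 ± 3.5 to 106 ± 5.53 CPM (SD, n = 4; log2 fold change 0.47, adjusted p = 4.71e-10).

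Of the 3 complex IV paralogues among the members, COX6B2 and NDUFA4L2 were low in both groups. COX7B2 rose from almost no counts to a low level. COX7B2, a paralogue of COX7B known mainly from testis (chr4:46734827-46909235), had 1, 0, 0 and 0 counts in control and 61, 52, 48 and 45 counts in knockdown. That is 0.0114 CPM and 2.31 ± 0.247 CPM (SD, n = 4), and the ratio of the summed counts, scaled for library size, was 204 with an exact 95% interval of 36.1 to 8079 for counting error only. The fitted log2 fold change of 7.09 (adjusted p = 1.66e-13) depends on the prior count. COX6B2 had 0.429 CPM in control and 0.469 CPM in knockdown and was not called (log2 fold change 0.13, adjusted p = 0.733). NDUFA4L2, a hypoxia-linked paralogue of NDUFA4, had 11, 3, 3 and 1 counts in control and 4, 0, 1 and 3 in knockdown and was not tested. The choice by symbol would also have taken COX4I2, COX6A2, COX7A1, COX8C and ATP5MGL. No gene in the count table carried these symbols, so they were not analysed.

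In complex V the 3 genes that encode the same mature c-subunit of the rotating membrane ring all rose, by unequal amounts. ATP5MC2 (chr12:53632726-53677408) had 81.2, 79.6, 88.7 and 80.6 CPM in control and 159.6, 152, 153 and 160.4 CPM in knockdown. The groups were far apart, with a log2 fold change of 0.92 ± 0.0407 (SE; adjusted p = 7.46e-17), while the 50 nearest genes had a median of -0.06. ATP5MC3 rose from 269.8 ± 5.25 to 355 ± 14.1 CPM (SD, n = 4; log2 fold change 0.39, and 0.18 relative to neighbours). ATP5MC1 rose from 74.7 ± 2.05 to 87.2 ± 1.37 CPM (SD, n = 4; log2 fold change 0.22), and it was not called relative to its neighbours, at 0.01.

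In the F1 head, the catalytic beta subunit ATP5F1B rose from 1405 ± 22.4 to 1749.8 ± 75.1 CPM (SD, n = 4; log2 fold change 0.32, and 0.14 relative to neighbours), and the alpha subunit ATP5F1A rose by 0.21. ATP5F1C, the gamma subunit of the central stalk, had 188, 186, 191 and 186 CPM in control and 307, 284, 308 and 310.4 CPM in knockdown, without overlap (log2 fold change 0.69, adjusted p = 2.06e-15, and 0.09 relative to neighbours with a median of 0.60). ATP5F1D was not called, and ATP5F1E was lower at -0.13, a call lost under upper-quartile scaling (-0.07), with library size alone (-0.05) and relative to neighbours.

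Of the 9 peripheral stalk and membrane subunits, 7 rose and 1 fell, beside 39.4% and 37.7% of all genes tested. ATP5ME, the e subunit at the dimer interface (chr4:672436-674338), had 58, 60.3, 62.7 and 54.6 CPM in control and 115, 114, 111 and 117 CPM in knockdown, without overlap (log2 fold change 0.96 ± 0.0459, SE; adjusted p = 1.74e-16). Its neighbours had a median of 0.59, and relative to them it was at 0.37 and still called. ATP5PO, which anchors the peripheral stalk to the head, had 197, 195, 197 and 191 CPM in control and 310.2, 284, 295 and 297 CPM in knockdown (log2 fold change 0.61, adjusted p = 1.92e-14). ATP5PF rose by 0.45, and 413 of its 2043 exon bases lie opposite GABPA. ATP5MG fell by 0.30 on the log2 scale, and was at -0.14 relative to neighbours. ATP5IF1, the inhibitor that blocks ATP hydrolysis by complex V (chr1:28236109-28246906), had 82.5, 84.7, 81.8 and 79.1 CPM in control and 58.1, 53.5, 58.4 and 55.1 CPM in knockdown. It fell against the direction of most of the complex, with a log2 fold change of -0.54 ± 0.0367 (SE; adjusted p = 1.5e-11) and neighbours at 0.05.

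**Figure D4:**
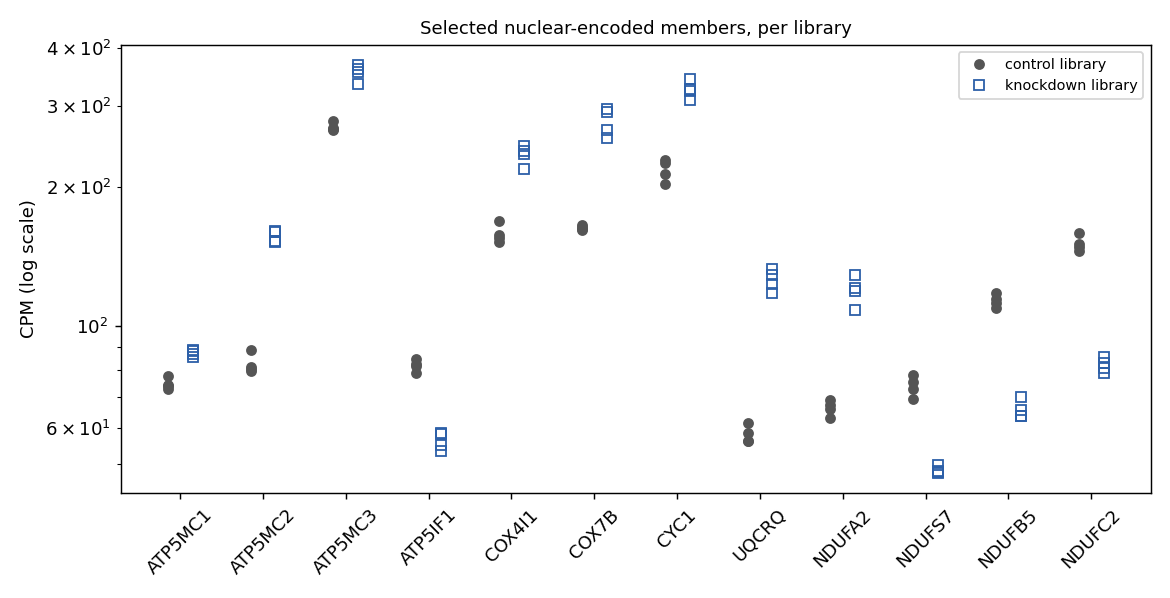
CPM (log scale) of selected nuclear genes in each of 4 control (filled circles) and 4 knockdown (open squares) libraries. The groups of every gene shown are separate; ATP5IF1, NDUFS7, NDUFB5 and NDUFC2 are lower in knockdown and the others higher, with UQCRQ moving from 58.1 to 126 CPM on average.

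Within each complex the balance of the 2 sets of transcripts shifted. The ratio of summed CPM, mtDNA-encoded over nuclear-encoded, was 3.73, 3.8, 3.61 and 3.71 in the control libraries and 2.43, 2.41, 2.23 and 2.38 in the knockdown libraries. The groups did not overlap, and the knockdown mean was 63.7% of the control mean. In complex III the ratio went from 1.39 ± 0.0579 to 0.628 ± 0.024 (SD, n = 4), that is to 45.2%, with MT-CYB lower and the nuclear sum higher, at 1433 CPM in control and 1786 CPM in knockdown. In complex V it went from 0.877 ± 0.0231 to 0.466 ± 0.0136 (53.2%), and in complex IV from 11.4 ± 0.3 to 6.99 ± 0.274 (61.4%). In complex I it went from 3.75 ± 0.108 to 2.96 ± 0.126 (78.9%), where the nuclear sums of the groups were 4101 ± 76.9 and 3997 ± 137 CPM (SD, n = 4). Genes of high level weigh most in these sums. In complex IV, MT-CO1 went from 15438 to 9005 CPM, MT-CO2 from 5288 to 4839.7 and MT-CO3 from 2126 to 2199.8. The highest nuclear gene of complex I, NDUFB9, went from 823 to 637 CPM. Protein was not measured.

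Change by chromosomal position accompanied the change of the nuclear members. Across the 77 tested genes, the member's log2 fold change and the median of its 50 nearest tested genes had a Spearman rho of 0.61 and a Pearson r of 0.39 (0.59 without COX7B2), beside 0.27 and 0.16 across 16189 genes. These are correlations across genes, which share libraries and, where close together, neighbours. Members on some chromosomes shared a direction, beside 39.4% of all genes higher and 37.7% lower: all 5 on chromosome 5 rose (NDUFA2, NDUFS4, NDUFS6, UQCRQ and COX7C), as did 3 of 3 on chromosomes 16 and 21, and 5 of 6 on chromosome 11 fell, while the 11 on chromosome 19 held 4 that rose and 4 that fell. These chromosomes were picked after their values were seen. Examples of members that moved away from their surroundings were ATP5MC2 (0.92, neighbours -0.06), COX7B (0.76, neighbours -0.03), ATP5PO (0.61, neighbours -0.12), NDUFB5 (-0.79, neighbours -0.09) and ATP5IF1 (-0.54, neighbours 0.05). NDUFA3 was not called (-0.06) among neighbours at 0.59, and relative to them it was lower at -0.65. These examples were picked after their values were seen, and other members departed by similar amounts, such as NDUFA2 and NDUFA6, each at 0.60 relative to neighbours. With each gene's neighbours as its reference, 50 nuclear members were higher and 16 lower. Of all genes tested, 75.8% were called in this setting in either direction, and their shares by direction are not given here. The neighbours' median came from the same libraries and was taken as exact, so these calls leave out its error. The part of the surrounding genes' change in each member's change was not tested.

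**Figure D5:**
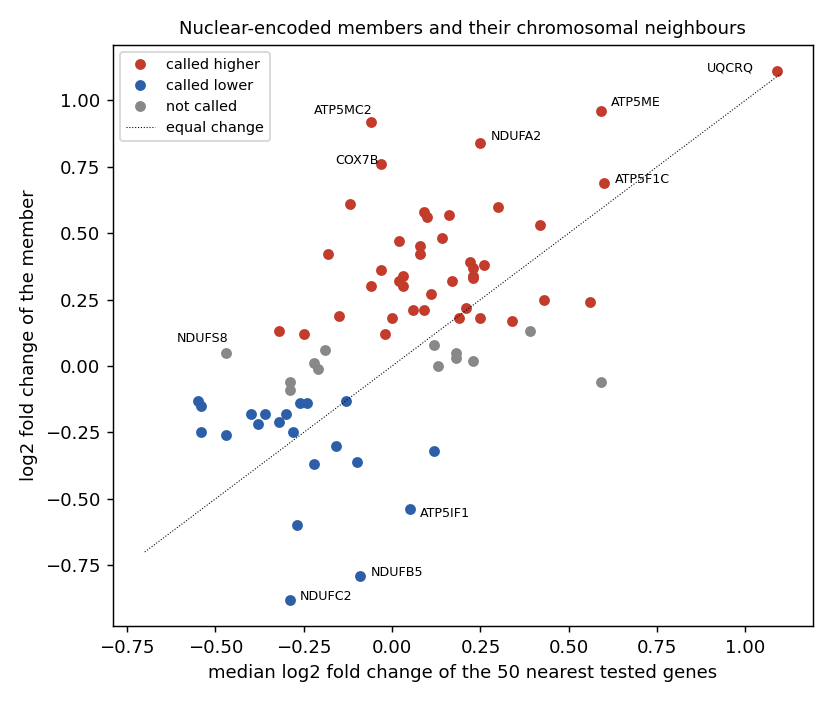
Log2 fold change of each nuclear member (vertical axis) against the median log2 fold change of its 50 nearest tested genes (horizontal axis), coloured by call, with a dotted line of equal change. COX7B2 is not shown. UQCRQ lies on the line at 1.11 and 1.09, while ATP5MC2 (0.92 against -0.06) and NDUFC2 (-0.88 against -0.29) lie away from it.

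The 8 noncoding and readthrough transcripts named after subunits were low, and the 5 tested had adjusted p between 0.174 and 0.933. NDUFA6-DT, a divergent transcript, had 3.26 CPM in control and 2.83 CPM in knockdown. The readthrough ATP5MF-PTCD1 had 20.8 and 19.6 CPM, and NDUFC2-KCTD14 had 1.74 and 1.13 CPM (log2 fold change -0.66, adjusted p = 0.375). Their exons overlap those of the coding genes, so their counts are uncertain.

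Genes that build or serve the chain but lie outside the choice by symbol moved in both directions. Over 112 tested genes of 10 lists, 47 rose, 41 fell and 24 were not called, with a median of 0.03. Among all genes tested 39.4% rose and 37.7% fell, so the number of calls is no feature of these lists. Of the 4 subunits of complex II, which has no mtDNA-encoded part, SDHB rose by 0.31, 2 fell (SDHC by 0.39 on the log2 scale) and 1 was not called. Of 12 genes for cytochrome c and coenzyme Q, 5 rose and 2 fell. CYCS, cytochrome c itself, had 546 ± 27.5 and 541 ± 28.4 CPM (SD, n = 4) and was not called. PDSS1 and PDSS2, the 2 partners that make the coenzyme Q side chain, changed by 0.83 and -0.47.

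Assembly factors were mixed as well, as were all genes tested, with 39.4% higher and 37.7% lower. For complex I 6 of 19 listed genes rose and 8 fell, from NDUFAF1 at -0.86 to NDUFAB1 at 0.53. NDUFAB1, the mitochondrial acyl carrier protein, was listed here but is also a subunit of complex I, which the choice by symbol left out. For complex III 1 of 6 rose and 4 fell: LYRM7, which handles the Rieske protein, was at 1.20 beside neighbours at 1.09, and UQCC3 at -0.61. For complex IV 10 of 26 rose and 12 fell, with SURF1, mutated in Leigh syndrome, at -0.82 and HIGD2A at 0.83. For complex V 2 of 4 rose and 1 fell.

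Of 26 genes for mitochondrial transcription, RNA handling and mtDNA upkeep, 15 rose, 6 fell and 5 were not called. Among all genes tested 39.4% rose and 37.7% fell. TFAM, which packages mtDNA and starts its transcription, had 88.7, 83, 76.4 and 84.7 CPM in control and 181, 174, 182 and 171 CPM in knockdown. It was thus higher in every knockdown library, with a log2 fold change of 1.09 ± 0.0507 (SE; adjusted p = 7.1e-18), while the mtDNA-encoded transcripts were lower. POLRMT, the mitochondrial RNA polymerase, had 58.1 ± 3.06 and 56 ± 2.16 CPM (SD, n = 4) and was not called. SLIRP and LRPPRC, which together stabilise mitochondrial messenger RNAs, rose by 0.77 and 0.51. POLG, the mitochondrial DNA polymerase, was at -0.54 and MTERF2 at -0.79.

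Of 10 tested nuclear regulators of these genes, 7 rose and 2 fell, beside 39.4% and 37.7% of all genes tested. GABPA had 42.5, 39.9, 33 and 39.3 CPM in control and 77.2, 77.1, 76.5 and 67.6 CPM in knockdown, without overlap (log2 fold change 0.95 ± 0.091, SE; adjusted p = 2.33e-09). NRF1 and YY1 rose by 0.19 and 0.22, MYC by 0.64 and the coactivator PPARGC1B by 0.57. ESRRA, the estrogen-related receptor alpha, was at -0.55. PPARGC1A had 0 counts in every control library and was below the filter. Of 3 tested uncoupling and stress genes 2 fell, HIF1A by 0.31 on the log2 scale and UCP2 by more. UCP2, an inner membrane carrier, went from 339.6 ± 14.3 to 23.7 ± 1.36 CPM (SD, n = 4; log2 fold change -3.84, adjusted p = 1.88e-28), a much larger change than that of any nuclear member except COX7B2.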

How the data were processed

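RNA sequencing libraries of SKBR3 cells, 4 control and 4 FOXA1 knockdown, were read as pairs of 101 bp, per the labels' protocols. The file that the authors deposited holds unnormalised whole counts per gene. The submitters' processing notes list FastQC, Salmon 1.9, DESeq2 3.16 and build hg38, without saying which step made the counts; the annotation and the use of strand are not given in the sources used here. Group membership was read from the titles, and columns were assigned to samples through their names. Positions are from GENCODE 29 on GRCh38, which held 29358 (96.5%) of the identifiers.

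Genes were kept by filterByExpr (minimum 10 counts, total 15), which left 16430 and removed 14004. Of the 100 members 95 passed; UQCRHL, NDUFA4L2 and 3 noncoding transcripts did not. Counts were scaled by TMM and tested in R 4.3.3 with edgeR 4.0.16 (glmQLFit with robust estimation, glmQLFTest, prior count 0.125), with p-values adjusted by Benjamini-Hochberg over the 16430 genes and called below 0.05. CPM used TMM-scaled totals, and SEs came from log2 CPM with 0.5 added to counts. A count of 3, taken as the floor, was 0.123 to 0.153 CPM. The biological coefficient of variation was 4.56%. On simulated counts for 16430 genes, 99 of 100 changes of 0.5 and 100 of 100 changes of 1 (log2) were called with the right sign, and 4.78% of calls were unchanged genes. The changed genes had a mean of at least 50 counts and rose as often as they fell, and all genes had the common dispersion, 0.00208. In the data 77.1% of genes were called, so these rates need not hold there.

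Library comparisons showed no pair within sampling noise. Same-numbered libraries did not deviate together (r of 0.02, 0.0563, -0.0307 and -0.00064), so the numbers were not used as pairs. Named members are those of mtDNA, for each complex the 4 largest rises and 4 largest falls that were called, did not overlap and averaged 50 counts or more, members called and changed at least 2-fold, paralogues with their broadly expressed partners, the c-subunit genes, ATP5IF1 and COX7A2L; for the other lists, the largest rise and fall. Other genes named were chosen after their values were seen. Some values are not reported here. The members and lists were chosen with earlier results of these data known. Alternatives were other scalings, filters, DESeq2 1.42.0, limma voom (limma 3.58.1), a replicate block, a stricter threshold, an offset equal to the median change of the 50 nearest genes, and leaving out each library. The offset was estimated from the same libraries and entered as a fixed value, without its error. Adding the nuclear copies of mitochondrial genes was chosen after seeing the data.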

Additional observations from a re-analysis of the deposited data

Results flagged for a closer look

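In 7 of 102 groups of 4 values, the highest or lowest library lay apart from the other 3 by more than Dixon's 95% critical ratio; chance gives about 5.1 such groups. Knockdown replicate 2 was low for ATP5F1C, at 284 CPM beside 307 to 310.4 in the others, and for COX5B, at 187 CPM beside 197 to 199. Control replicate 1 was low for MT-CO2, at 5165 CPM beside 5322 to 5335, and for MT-ND2, at 2676 CPM beside 2758 to 2775. Control replicate 3 was high for ATP5MC3, at 278 CPM beside 266 to 268. Knockdown replicate 4 was low for COX6B2, at 0.324 CPM beside 0.509 to 0.533. Control replicate 1 held the single count of COX7B2, 0.0458 CPM, beside 0 in the other controls.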

How the results depend on the processing

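Across the alternatives between 73 and 77 of the 95 tested members were called, beside 75 in the analysis as reported. The replicate block gave 75 called members, 43 nuclear members higher and 21 lower, beside 75.8% of all genes called, and changed no call among the named members. Upper-quartile scaling and library size alone moved the median of all genes to 0.079 and 0.103, and the medians to 0.09 and 0.11 for complex I, 0.23 and 0.25 for complex III, 0.31 and 0.33 for complex IV, 0.28 and 0.30 for complex V and -0.52 and -0.50 for the mtDNA-encoded genes. Under each, 1 mtDNA-encoded gene was called higher, MT-CO3; leaving out single libraries gave 0 to 1. These scalings turned MT-ND1 to 0.02 and 0.04 and UQCRH to 0.00 and 0.03.

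Relative to the 50 nearest genes, the medians were 0.12 for complex I and 0.16 for complex V, and 50 nuclear members were higher and 16 lower. In this setting 75.8% of all genes tested were called in either direction. With this reference 9 of the genes named by rule turned: COX5A to 0.02, COX6B1 to -0.31, COX6B2 to -0.26, COX6C to 0.21, COX7A2 to -0.08, COX8A to 0.11, NDUFA4 to 0.29, UQCR11 to 0.18 and UQCRH to 0.24. Leaving out single libraries put COX6B2 between -0.04 (without control replicate 1) and 0.26. At these depths COX6B2, COX7B2, NDUFA4L2 and UQCRHL rest on few counts, and their differences have wide errors.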
